A study of Mus musculus with 4 samples.

Results

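The 10 genes described here encode the enzymes that build, elongate, desaturate and activate fatty acids: *Acly*, *Acaca*, *Fasn*, *Scd1*, *Scd2*, *Elovl6*, *Fads1*, *Fads2*, *Acsl3* and *Me1*. They were chosen by function as lipogenic enzymes, an elongase, desaturases and their close partners. All 10 were found among the 39179 genes listed in the count tables, and all 10 were among the 11483 genes tested. B16F1 is a mouse melanoma cell line. RNA was sequenced from 2 libraries of parental B16F1 control cells and from 2 libraries of tumor repopulating cells (TRCs), which are the B16F1 cells that grew into spheroids in soft 3D fibrin gels of 90 Pa and were isolated on day 5. Both groups come from the same cell line, the labels name no altered gene and no added agent, and the libraries of each group carry the replicate numbers 1 and 3. The study describes the seeding of single cells, most of which did not survive in the gel, so selection, growth in 3D and the soft matrix cannot be told apart in this design. Nothing in the labels says whether the libraries of a group came from separate cultures, so p-values measure only the spread between these samples.

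In the cytosol, ATP citrate lyase (*Acly*) splits citrate into acetyl-CoA, acetyl-CoA carboxylase 1 (*Acaca*) turns it into malonyl-CoA, and fatty acid synthase (*Fasn*) uses both to make the saturated fatty acid palmitate. Malic enzyme 1 (*Me1*) is one source of the NADPH that the synthase consumes. ELOVL6 lengthens palmitate to stearate, the stearoyl-CoA desaturases SCD1 and SCD2 place a first double bond in saturated chains, and FADS1 and FADS2 add double bonds to polyunsaturated chains, while ACSL3 attaches coenzyme A to free fatty acids. Many of these genes are known targets of the transcription factor SREBP1, and the first desaturation step is known to need molecular oxygen.

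Each library held between 35948295 and 43511554 counts assigned to genes. Values are given as CPM, counts relative to the library total, scaled by the TMM method, which corrects for differences in library composition, and 3 counts corresponded to between 0.0674 and 0.0849 CPM, a floor for counting error only. TRCs and control cells were compared by the exact test of edgeR, and a gene was called at a Benjamini-Hochberg FDR under 0.05 over all genes tested. Standard errors (SE) came from DESeq2, and 95% intervals of log2 fold changes were taken as a normal interval from that SE. All 7 melanocyte markers examined were tested, from *Mitf* and *Sox10* to *Pmel*, and together they summed to 18894 and 15694 CPM in control replicates 1 and 3 and to 23942 and 26640 CPM in TRC replicates 1 and 3. All 7 had a higher fitted level in TRCs and 1, *Dct*, was called (2.11-fold, FDR = 0.000307), and the part of this shift in the results was not tested. Of the markers of other cell types, 5 of 8 leukocyte markers, including *Ptprc*, and 3 of 5 endothelial markers had no count in any library. The summed level was 1.71 to 4.97 CPM for the leukocyte list and 0.0480 to 0.198 CPM for the endothelial list. The 7 fibroblast markers summed to 24.8 and 40.6 CPM in control cells and to 8.52 and 10.02 CPM in TRCs, and their part in the results was not tested. Alignments that were not unique made up 15.2% and 17.1% of all alignments in the control libraries and 18.3% and 25.2% in the TRC libraries.

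Promoter sequences from RefSeq (GRCm38.p6) matched 7 of the 10 genes by symbol, with *Scd1*, *Scd2* and *Fads1* not matched. The stretches before the transcription start of *Acly* and *Fasn*, which did not pass the test, and of *Acsl3* and *Me1*, which were upregulated, are shown as examples. They lie at chr11:100528001-100528250 (minus strand), chr11:120824548-120824797 (minus strand), chr1:78657575-78657824 (plus strand) and chr9:86695954-86696164 (minus strand) in the same order. Each ends at the last base before the annotated gene. Capitals mark the CCAAT box, which is bound by NF-Y, and the GC box GGGCGG, which is bound by Sp1, on either strand.
Acly: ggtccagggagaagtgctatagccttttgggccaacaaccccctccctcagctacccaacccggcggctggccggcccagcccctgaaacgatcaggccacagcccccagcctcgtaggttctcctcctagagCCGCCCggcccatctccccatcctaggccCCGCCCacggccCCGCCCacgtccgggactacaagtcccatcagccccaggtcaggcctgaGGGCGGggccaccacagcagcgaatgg
Fasn: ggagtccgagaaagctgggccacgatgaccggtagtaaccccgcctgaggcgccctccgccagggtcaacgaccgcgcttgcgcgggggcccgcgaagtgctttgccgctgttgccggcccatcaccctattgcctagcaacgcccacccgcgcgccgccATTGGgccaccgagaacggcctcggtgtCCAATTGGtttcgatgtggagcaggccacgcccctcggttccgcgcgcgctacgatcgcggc
Acsl3: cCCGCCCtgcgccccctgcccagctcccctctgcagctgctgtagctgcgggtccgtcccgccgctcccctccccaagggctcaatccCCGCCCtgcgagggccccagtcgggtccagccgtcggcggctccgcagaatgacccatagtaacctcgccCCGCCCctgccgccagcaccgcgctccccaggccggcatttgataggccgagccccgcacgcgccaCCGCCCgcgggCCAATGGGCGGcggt
Me1: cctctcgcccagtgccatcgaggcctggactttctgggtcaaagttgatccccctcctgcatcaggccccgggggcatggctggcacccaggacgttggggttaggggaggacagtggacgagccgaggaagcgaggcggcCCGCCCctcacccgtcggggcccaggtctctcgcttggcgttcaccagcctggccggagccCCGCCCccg
In the 250 bases before the start, *Fasn* held 3 CCAAT boxes and 0 GC boxes, *Acly* 0 and 4, *Acsl3* 1 and 5, and *Me1* 0 and 3, where the start nearest the gene's 5′ end was taken for *Me1*. The CCAAT boxes of *Fasn* nearest its start overlap on opposite strands, and the CCAAT box of *Acsl3* adjoins a GC box. 1 GC box of *Me1* crosses the end of the printed stretch, which stops 39 bases before the RefSeq start because the GENCODE gene begins there, and is not in capitals. A CCAAT box was found in 33.8% and a GC box in 32.7% of all 32851 promoters of this length. The sterol regulatory element TCACNCCAC and the E-box CACGTG, searched on both strands, were found in 0 of the 8 promoters of the 7 genes, against 1.05% and 6.02% of all promoters. The start for *Acaca* lies 65766 bases inside the annotated gene, that of *Fads2* 243 bases and 1 of those for *Me1* 8676 bases. The bases searched before these starts thus lie mostly inside the gene. The hypoxia response cores ACGTG and GCGTG, of which the first is also part of the E-box, were each found in 2 of the 8, against 16.6% and 28.2%. The promoters with ACGTG were that of *Acly* and that of *Me1* whose start lies 8676 bases inside the gene. Those with GCGTG were of *Acsl3* and *Fasn*. These are matches of letters in a short window and say nothing of binding.

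The test calls divided the 10 genes. Both stearoyl-CoA desaturases, *Acsl3* and *Me1* were upregulated in TRCs by between 1.65-fold and 2.16-fold. The carboxylase, the synthase, ATP citrate lyase, the elongase and both *Fads* genes did not pass the test. Of the 10 genes, 4 were called higher and 0 lower in TRCs (0 lower also at an unadjusted p under 0.05, in edgeR's quasi-likelihood test and in DESeq2), where 8.81% of all genes tested were called higher and 7.05% lower. The median log2 fold change was 0.42 over the 10 genes and 0.0034 over all genes tested, with 8 of the 10 higher and 2 lower. For 4 of the 10 genes both TRC values exceeded both control values (30.2% of all genes tested), and these were the genes called. For 0 of the 10 both TRC values lay below both control values (30.4% of all genes tested), and the groups overlapped for the other 6.

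The count of called genes depended on the libraries. The quasi-likelihood test called 3 of the 10 higher and 0 lower (4.94% and 4.24% of all genes tested), and DESeq2 called 4 and 0 (9.49% and 8.24%). Without control replicate 1 the exact test called *Scd1* higher and *Fasn* lower (9.39% and 7.44% of all genes tested). Without control replicate 3 it called *Scd1*, *Scd2*, *Me1* and *Acly* higher (4.35% higher and 3.16% lower over all genes). Without TRC replicate 1 (4.39% and 2.34%) or TRC replicate 3 (4.37% and 2.36%) it called *Scd1* and none of the other 9 genes. In these fits the lone library of a group was assumed to vary like the others.

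**Figure D1:**
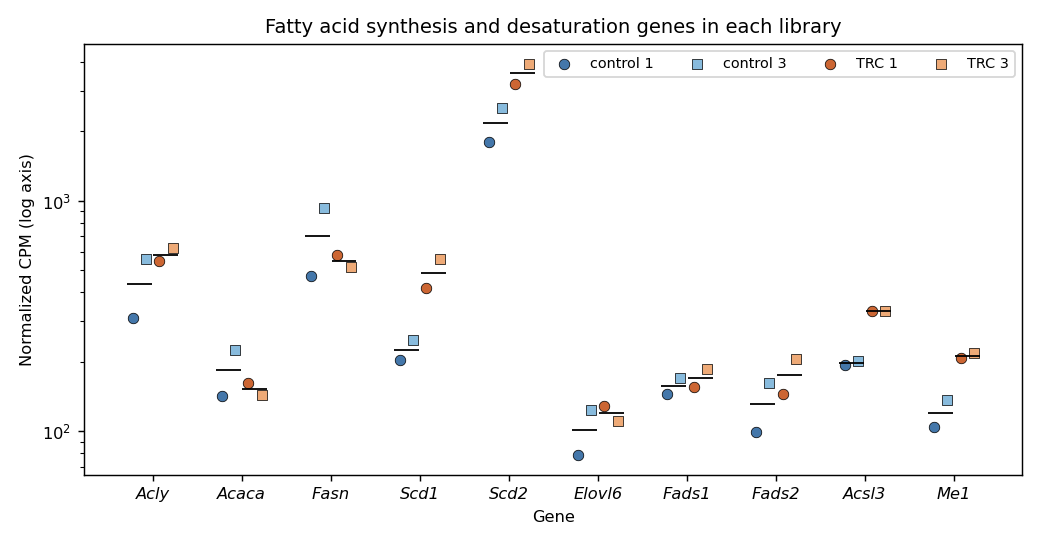
Normalized CPM (log axis) of the 10 genes in each library, with circles for replicate 1, squares for replicate 3, blue for control cells, orange for TRCs and a black line at each group mean. The orange points lie above the blue points without overlap for *Scd1*, *Scd2*, *Acsl3* and *Me1*, and *Fasn* is highest in control replicate 3 with 930 CPM.

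Among the 10 genes *Scd1* had the largest log2 fold change and *Scd2* the highest level. In bulk RNA, a change in the share of cells that express a gene and a change in RNA per cell cannot be told apart. *Scd1* (ENSMUSG00000037071, chromosome 19 from 44394455 to 44407879, minus strand, GRCm38) had 203 and 249 CPM in control replicates 1 and 3, and 416 and 557 CPM in TRC replicates 1 and 3. Both TRC libraries were well above both control libraries, and the spread within each group was smaller than the distance between them. *Scd1* rose 2.16-fold, from 226 ± 32.7 to 486 ± 99.3 CPM (mean ± SD, n = 2 in each group) (log2 fold change 1.11, SE 0.23, FDR = 0.000306 in edgeR's exact test). Leaving out any single library kept the call, and the FDR then lay between 0.000609 and 0.0366.

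*Scd2* (ENSMUSG00000025203), which encodes another stearoyl-CoA desaturase, lies on the same chromosome from 44293674 to 44306864 on the plus strand. It had 1789 and 2532 CPM in control replicates 1 and 3, and 3220 and 3930 CPM in TRC replicates 1 and 3. The groups did not overlap, but the control libraries differed from each other by more than control replicate 3 and TRC replicate 1 did. *Scd2* rose 1.65-fold (log2 fold change 0.73, SE 0.24, FDR = 0.0328). Its FDR was 0.142 in edgeR's quasi-likelihood test, 0.273 without control replicate 1, 0.0738 without TRC replicate 1, 0.298 without TRC replicate 3 and 0.0217 without control replicate 3, so the call rests on the test and on single libraries.

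The 10 genes together summed to 3533 and 5285 CPM in control replicates 1 and 3, and to 5893 and 6817 CPM in TRC replicates 1 and 3. *Scd2* supplied between 47.9% and 57.7% of this sum. Without it the other 9 genes summed to 1744 and 2754 CPM in control cells and to 2673 and 2887 CPM in TRCs, which overlapped. Within the family and per kb of transcript, *Scd2* made up 88.6% and 89.97% in the control libraries and 87.2% and 86.2% in the TRC libraries. The share of *Scd1* was 11.3% and 9.98% in control cells and 12.7% and 13.8% in TRCs. Thus *Scd1* had a slightly larger share in both TRC libraries, and *Scd2* was the main desaturase transcript in all 4. *Scd3* had 2 and 4 counts in control cells and 9 and 7 in TRCs, and *Scd4* had between 12 and 27 counts per library.

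*Acsl3* (ENSMUSG00000032883, chromosome 1 from 78657825 to 78707743, plus strand) was the member with the least spread. It had 193 and 202 CPM in the control libraries and 332 and 333 CPM in the TRC libraries. Replicates nearly coincided within both groups. *Acsl3* rose 1.68-fold (log2 fold change 0.75, SE 0.18, FDR = 0.00989). Leaving out any of the 4 libraries moved its log2 fold change little, to between 0.72 and 0.78, but the FDR then lay between 0.0676 and 0.104, so that the call was lost each time. Some of its exons overlap those of *Utp14b* on the same strand, and 2.78% of its 101-base windows are shared with that gene.

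*Me1* (ENSMUSG00000032418, chromosome 9 from 86581371 to 86695953, minus strand) had 104 and 136 CPM in control replicates 1 and 3, and 208 and 217 CPM in TRC replicates 1 and 3. Every TRC library lay above every control library. *Me1* rose 1.77-fold (log2 fold change 0.82, SE 0.22, FDR = 0.00685). Its FDR was 0.0108 without control replicate 3, 0.104 without control replicate 1, 0.0662 without TRC replicate 1 and 0.0864 without TRC replicate 3. In the annotation, 17.0% of the 101-base windows of its transcript also occur in the pseudogenes *Gm48795*, *Gm7049* or *Gm7329*, and reads from these windows may be among the alignments that were not unique, which were not counted on any gene. *A330041J22Rik* overlaps its exons on the opposite strand, and the strand setting of the counting is not given in the sources used here.

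The enzymes of the synthesis steps did not pass the test. *Fasn* (ENSMUSG00000025153, chromosome 11 from 120805846 to 120824547, minus strand) had 469 and 930 CPM in control replicates 1 and 3, and 580 and 515 CPM in TRC replicates 1 and 3. Both TRC libraries lay between the 2 control libraries. The log2 fold change was −0.35 (SE 0.31, FDR = 0.473), with a 95% interval from −0.96 to 0.25. Without control replicate 1 it was −0.76 (FDR = 0.0403), and without control replicate 3 it was 0.22 (FDR = 0.785), so the direction for *Fasn* depends on which control library is used.

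*Acaca* (ENSMUSG00000020532, chromosome 11 from 84129672 to 84401651, plus strand) had the same order of libraries, with 142 and 225 CPM in control replicates 1 and 3, and 162 and 144 CPM in TRC replicates 1 and 3. Its log2 fold change was −0.26 (SE 0.26, FDR = 0.549), with a 95% interval from −0.78 to 0.25. It was 0.10 without control replicate 3 and −0.56 without control replicate 1. Of the 101-base windows of its longest transcript, 42.7% are shared with the pseudogene *Gm5182*, so its level may be undercounted. *Acacb*, which encodes the mitochondrial carboxylase isoform whose product restrains fatty acid oxidation, had 15.7 and 11.7 CPM in control cells and 24.4 and 18.4 CPM in TRCs, with FDR = 0.182.

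*Acly* (ENSMUSG00000020917, chromosome 11 from 100476353 to 100528000, minus strand) had 310 and 556 CPM in control replicates 1 and 3, and 547 and 620 CPM in TRC replicates 1 and 3. TRC replicate 1 lay just below control replicate 3, so the groups overlapped. The log2 fold change was 0.43 (SE 0.29, FDR = 0.328), with a 95% interval from −0.13 to 0.99. It was 0.91 without control replicate 3 (FDR = 0.0356) and 0.069 without control replicate 1 (FDR = 0.916).

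The elongase and the *Fads* genes overlapped between groups as well. *Elovl6* (ENSMUSG00000041220, chromosome 3 from 129532355 to 129638495) had 78.6 and 123 CPM in control replicates 1 and 3, and 129 and 111 CPM in TRC replicates 1 and 3, with a log2 fold change of 0.25 (95% interval from −0.27 to 0.77, FDR = 0.577). *Fads1* (ENSMUSG00000010663, chromosome 19 from 10182888 to 10196877), the delta-5 desaturase, had 145, 170, 155 and 185 CPM in the same order of libraries, with a log2 fold change of 0.11 (95% interval from −0.31 to 0.53, FDR = 0.806). *Fads2* (ENSMUSG00000024665, chromosome 19 from 10062765 to 10101746), the delta-6 desaturase, had 99.6, 162, 144 and 205 CPM, with a log2 fold change of 0.42 (95% interval from −0.16 to 0.99, FDR = 0.341). For both *Fads* genes the libraries numbered 3 exceeded those numbered 1 in control cells and in TRCs. The same order held for 7 of the 10 genes in all. The intervals still include changes as large as that of *Scd2* for *Fads2* and *Elovl6*, and for *Fads1* the interval reaches 0.53 at most.

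**Figure D2:**
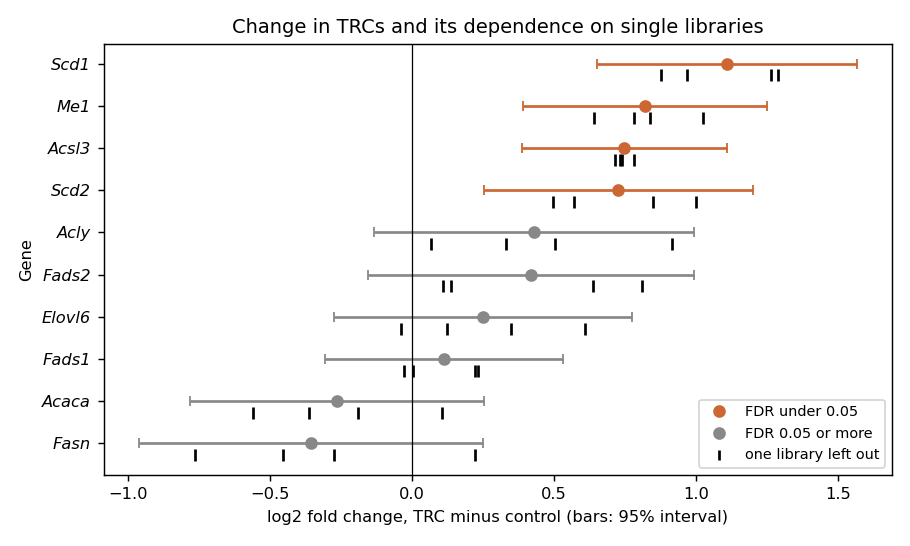
Log2 fold change of TRCs relative to control cells for the 10 genes with 95% intervals (horizontal axis), orange for genes with FDR under 0.05 and gray for the others, and black ticks for the values with 1 library left out. The 4 orange intervals lie above 0, and the ticks of *Fasn* spread from −0.76 to 0.22.

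The 2 control libraries differed in the lipogenic genes. All 10 genes were lower in control replicate 1 than in control replicate 3, where 50.4% of all genes tested were lower. The median difference on the log2 scale of CPM plus 0.5 was −0.57 for the 10 genes and −0.0042 for all genes tested. For 6 of the 10 genes control replicate 1 was lower by more than 0.5, which was the case for 6.74% of all genes tested. *Fasn*, at −0.99, was at the 0.592th percentile of all genes tested, *Acly*, at −0.84, at the 1.10th, and *Fads2*, at −0.70, at the 2.50th. By contrast *Acsl3* differed by −0.066. Between the TRC libraries the median was −0.12, and 7 of the 10 genes were lower in replicate 1. The genes of sterol synthesis, with 20 of 21 lower in control replicate 1 and a median of −0.62, showed a difference of similar size between the control libraries. No label names a batch or a culture date for these libraries, so a cause was not tested.

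Log2 ratios of each TRC library to each control library had mixed signs for 6 of the 10 genes. Against control replicate 1 the log2 ratios of TRC replicates 1 and 3 were 0.82 and 1.0 for *Acly*, 0.30 and 0.13 for *Fasn*, and 0.71 and 0.50 for *Elovl6*. Against control replicate 3 they were −0.02 and 0.16 for *Acly*, −0.68 and −0.85 for *Fasn*, and 0.07 and −0.15 for *Elovl6*. For *Scd1* the ratios were 1.04 and 1.46 against control replicate 1, and 0.74 and 1.16 against control replicate 3. For *Acsl3* all ratios lay between 0.71 and 0.78. The 4 pairs share libraries and are not independent.

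**Figure D3:**
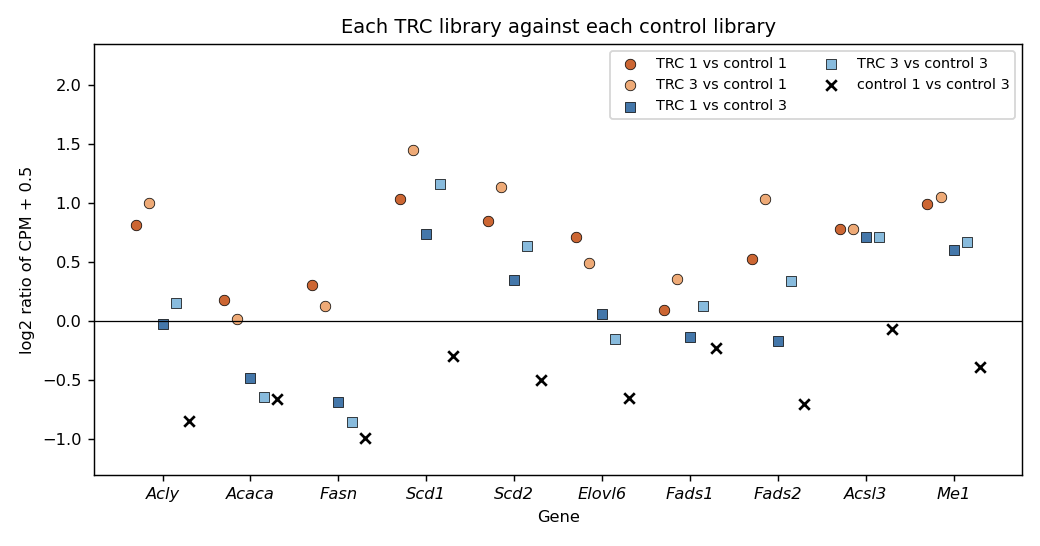
Log2 ratio of CPM plus 0.5 for each TRC library against each control library (orange circles against control replicate 1, blue squares against control replicate 3) and for control replicate 1 against control replicate 3 (crosses), by gene. All 10 crosses lie below 0, and the blue squares lie below 0 for *Acaca* and *Fasn* and above 0 for *Scd1*, *Scd2*, *Acsl3* and *Me1*.

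Ratios of the genes to *Fasn* within a library describe their balance with the synthase without the scaling between libraries. The ratio of *Scd1* to *Fasn* CPM was 0.432 and 0.268 in control replicates 1 and 3, against 0.718 and 1.08 in TRC replicates 1 and 3. The ratio of *Scd2* to *Fasn* was 3.81 and 2.72 in control cells and 5.55 and 7.63 in TRCs. The ratio of *Acly* to *Fasn* was 0.660 and 0.598 in control cells and 0.944 and 1.20 in TRCs, which did not overlap although the levels of *Acly* did. In total, 7 of the 9 other genes had a higher ratio in both TRC libraries than in both control libraries, where 21.7% of all genes tested did, and the ratios of *Acaca* and *Fads1* overlapped. The *Acaca* ratio was nearly even, with 0.303 and 0.242 in control cells and 0.279 and 0.280 in TRCs. All these ratios share the same *Fasn* values, and their differences were not tested.

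Levels per kb of the longest annotated transcript put *Scd2* first in both groups, with a mean of 396 CPM per kb in control cells and 655 CPM per kb in TRCs. *Acly* followed with 97.9 and 132 CPM per kb. In control cells the next were *Fasn* (69.6), *Acsl3* (50.1), *Scd1* (46.7), *Fads1* (45.4), *Fads2* (41.5) and *Me1* (36.6 CPM per kb), and neighbours in this order from *Acly* to *Me1* overlapped between libraries. In TRCs the order after *Acly* was *Scd1* (101), *Acsl3* (84.1), *Me1* (64.6), *Fads2* (55.4), *Fasn* (54.5) and *Fads1* (49.1 CPM per kb), and the neighbours from *Me1* to *Fads1* overlapped. *Fasn* thus stood at rank 3 of 10 in control cells and at rank 7 in TRCs. *Acaca* and *Elovl6* were lowest in both groups, between 14.9 and 23.7 CPM per kb for *Acaca* and between 13.2 and 21.7 for *Elovl6*.

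Within the family of long-chain acyl-CoA synthetases, *Acsl3* made up 50.1% and 46.3% of the transcripts per kb in control cells and 62.3% and 62.35% in TRCs. The share of *Acsl5* was 32.9% and 35.8% in control cells and 19.4% and 18.3% in TRCs. A share also falls when other genes of the family rise. The level of *Acsl5* was 136 and 168 CPM in control cells and 111 and 105 CPM in TRCs, and it did not pass the test (FDR = 0.135). *Acsl4*, which prefers polyunsaturated fatty acids such as arachidonate, rose from 63.4 ± 7.59 to 106 ± 6.91 CPM (mean ± SD, n = 2 in each group) (log2 fold change 0.74, SE 0.21, FDR = 0.0125), and *Acsl1* had FDR = 0.336. The call for *Acsl4* was lost without control replicate 1 (FDR = 0.0975) and without either TRC library, with FDR values of 0.0745 and 0.155. In the *Elovl* family *Elovl1* and *Elovl5* led with 30.2% to 37.4% and 35.3% to 39.3%, and the share of *Elovl6* overlapped between groups, with 14.2% and 18.8% in control cells and 19.1% and 16.3% in TRCs. *Fads1* and *Fads2* were close to even, with 55.9% and 48.5% *Fads1* in control cells and 48.5% and 44.8% in TRCs. With division by the length of all exons of the gene, *Fads2* was the larger in all 4 libraries. *Me1* supplied 62.2% and 59.1% of malic enzyme transcripts in control cells and 69.1% and 51.6% in TRCs, where TRC replicate 3 differed in *Me2*, with 207 CPM against 62.5 to 94.6 CPM in the other libraries.

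**Figure D4:**
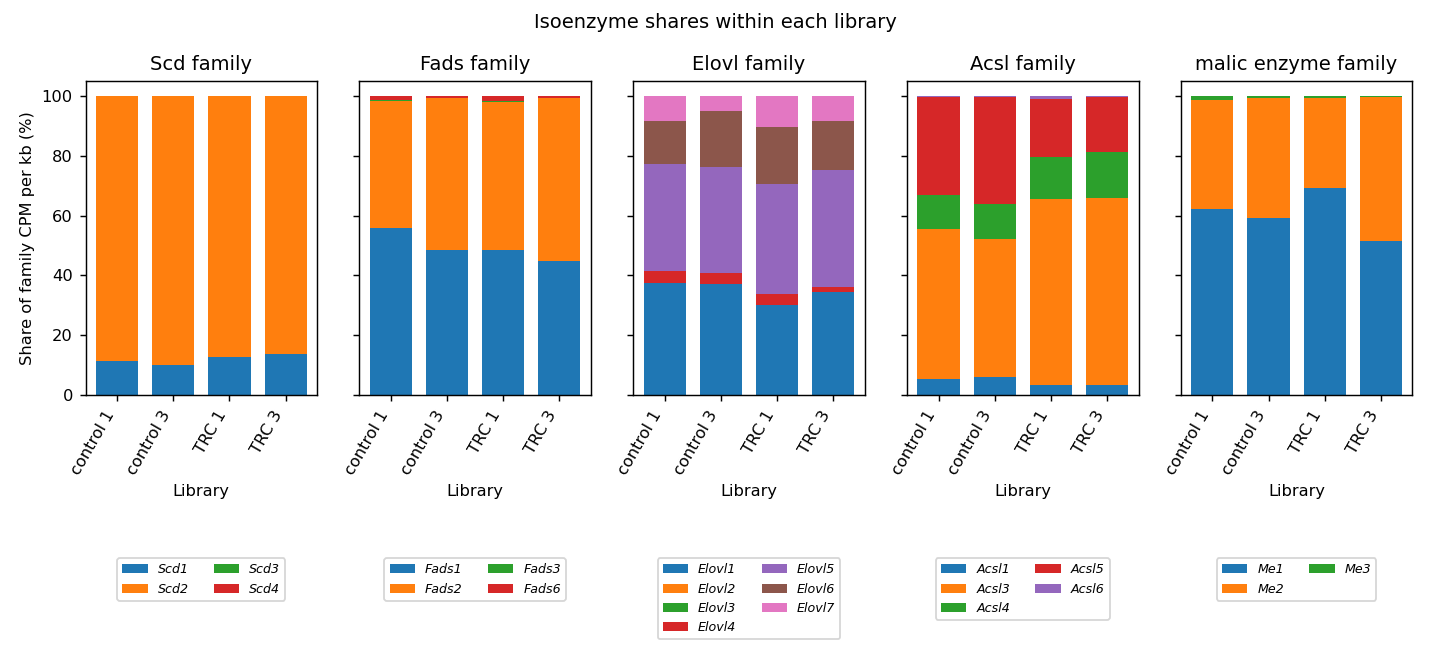
Share of each isoenzyme in its family (percent of CPM per kb of the longest transcript) as stacked bars for each of the 4 libraries. *Scd2* fills most of the *Scd* bars in all libraries, and *Acsl3* takes 50.1% and 46.3% in control cells and 62.3% and 62.35% in TRCs.

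Genes that supply acetyl groups and NADPH were examined next. Of 13 tested, 3 were upregulated and 1 downregulated, with a median log2 fold change of 0.24. Over all genes tested, 8.81% were called higher and 7.05% lower, and these shares also stand beside the counts of the lists that follow. *Slc25a1*, the carrier that exports citrate from mitochondria, rose from 58.2 ± 0.107 to 141 ± 10.03 CPM (mean ± SD, n = 2 in each group), a 2.42-fold change (log2 SE 0.20, FDR = 8.88e-07). *Acss2*, which makes acetyl-CoA from acetate, rose from 16.5 ± 1.75 to 40.7 ± 7.33 CPM (mean ± SD, n = 2 in each group), a 2.47-fold change (log2 SE 0.26, FDR = 7.11e-05). Both kept an FDR under 0.05 with each library left out. The third was *Me2*, the mitochondrial malic enzyme, whose groups overlapped (FDR = 0.0451) and which is named here after its values were seen. Its FDR was 0.0783 without a filter on low counts, 0.137 in the quasi-likelihood test, 0.0550 in DESeq2, 0.289 without control replicate 1 and 0.756 without TRC replicate 3, where its log2 fold change of 0.93 became 0.24. *Pgd* of the pentose phosphate pathway, another NADPH source, had 201 and 309 CPM in control cells and 134 and 174 CPM in TRCs (log2 fold change −0.72, FDR = 0.0451). *Pgd* kept its call in 5 of the 8 alternatives with all libraries. It lost the call without a filter on low counts and in the quasi-likelihood test, with or without a block for replicate number. Its FDR was 0.531 without control replicate 3, 0.392 without TRC replicate 1 and 0.0826 without TRC replicate 3. *G6pdx*, the entry enzyme of that pathway, had a log2 fold change of −0.54 (FDR = 0.13), which had an FDR of 0.0241 without control replicate 1. *Idh1*, a further NADPH source, had a log2 fold change of 0.59 (FDR = 0.131), with an FDR of 0.00602 without control replicate 3.

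Of 8 genes of lipogenesis partners and mitochondrial fatty acid synthesis tested, 0 were upregulated and 1 was downregulated, with a median of −0.0047. The gene that fell was *Mecr*, the mitochondrial enoyl reductase, with 17.5 and 23.5 CPM in control cells and 9.47 and 9.89 CPM in TRCs (log2 fold change −1.08, SE 0.29, FDR = 0.0139). Its FDR was 0.199 without control replicate 3, 0.169 without TRC replicate 1 and 0.140 without TRC replicate 3. *Mid1ip1*, which promotes polymerization of acetyl-CoA carboxylase, had FDR = 0.594. Of 10 genes of the elongation cycle tested, 0 were called in either direction in the exact test, in the quasi-likelihood test or in DESeq2, although 2 were higher at an unadjusted p under 0.05, and the median was 0.37. With single libraries left out, 2 of these genes were called higher without control replicate 1 and 1 without TRC replicate 1. *Elovl5*, which elongates polyunsaturated chains, had a log2 fold change of 0.27 (FDR = 0.473). Among 6 other desaturases and electron donors tested, 1 was upregulated and 0 downregulated, with a median of 0.065, and 1 was called lower without control replicate 3. Of these 6 genes, 3 had a higher and 3 a lower fitted level in TRCs. The upregulated gene was *Cyb5a*, which encodes cytochrome b5, an electron donor of the stearoyl-CoA desaturases. *Cyb5a* had 451 and 561 CPM in control cells and 810 and 866 CPM in TRCs (log2 fold change 0.73, SE 0.21, FDR = 0.0181). Its FDR was 0.0680 in the quasi-likelihood test, 0.170 without control replicate 1, and 0.0971 and 0.154 without TRC replicates 1 and 3.

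Of the 10 other acyl-CoA synthetase genes tested, 3 were upregulated and 0 downregulated, with a median of 0.26. Besides *Acsl4* these were *Acsf2*, with a log2 fold change of 0.81 (FDR = 0.0240), and the weakly expressed *Acsl6*, with 1.60 (FDR = 0.0149). In the quasi-likelihood test the FDR was 0.0759 for *Acsf2* and 0.0707 for *Acsl6*. With single libraries left out it ranged from 0.000941 to 0.331 and from 0.00990 to 0.394, and each stayed under 0.05 in 1 of 4 such fits.

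Of the SREBP genes, *Srebf2* passed the test and *Srebf1* did not, and the difference between them was not tested. *Srebf1*, which encodes SREBP1, had 95.7 and 138 CPM in control replicates 1 and 3, and 108 and 141 CPM in TRC replicates 1 and 3. The groups overlapped, with a log2 fold change of 0.087 (95% interval from −0.43 to 0.60, FDR = 0.867) that became −0.16 without control replicate 1. *Srebf2*, which encodes SREBP2, the factor that mainly drives sterol genes, had 154 and 226 CPM in control cells and 311 and 422 CPM in TRCs. It rose by 0.95 on the log2 scale (SE 0.26, FDR = 0.00531), with an FDR of 0.106 without control replicate 1 and 0.161 without TRC replicate 3. *Insig1*, itself a target of SREBP that retains the SREBP complex in the endoplasmic reticulum, had 102 and 226 CPM in control cells and 400 and 452 CPM in TRCs (log2 fold change 1.38, SE 0.34, FDR = 0.000707). *Insig2* had a log2 fold change of 1.17 (FDR = 0.000484), with FDR values of 0.0511 and 0.0544 without control replicate 3 and TRC replicate 3. Of 19 regulators tested, 5 were upregulated and 0 downregulated, with a median of −0.0043. The count of upregulated regulators was 3 without control replicate 3 and 1 without TRC replicate 3. A further upregulated gene was *Prkab2*, a subunit of AMPK, the kinase that inactivates acetyl-CoA carboxylase, with a log2 fold change of 1.53 (FDR = 0.000978) that had an FDR of 0.148 without TRC replicate 3. The fifth was *Nr1h2* (LXR beta), with 0.70 (FDR = 0.0165), named after its values were seen, and its FDR was 0.179 without control replicate 3, 0.142 without TRC replicate 1 and 0.156 without TRC replicate 3. *Prkab1*, another AMPK subunit named after its values were seen, had 40.6 and 39.3 CPM in control cells and 26.7 and 26.2 CPM in TRCs. Its log2 fold change of −0.59 (FDR = 0.0794) did not pass the test and was opposite in direction to that of *Prkab2*. The AMPK subunit genes *Prkaa1*, *Prkaa2*, *Prkag1* and *Prkag2* did not pass the test either. *Mlxipl* (ChREBP) had 0 to 2 counts and *Nr1h3* (LXR alpha) 1 to 8 counts per library, near the floor of 3 counts.

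Steps that use fatty acids were examined with 2 further lists. In glycerolipid esterification 3 of 15 genes tested were upregulated and 0 downregulated, with a median of 0.18. *Lpin1*, a phosphatidate phosphatase, rose from 30.9 ± 11.4 to 69.0 ± 4.34 CPM (mean ± SD, n = 2 in each group) (log2 fold change 1.16, FDR = 0.000681). *Lpin3* and *Dgat2* rose by 2.60 and 1.29 from levels of 0.333 and 1.86 CPM, with FDR values of 0.00115 and 0.0326, and the FDR of *Dgat2* was between 0.101 and 0.314 with single libraries left out. *Lpin3* had 2.96 and 1.08 CPM in TRC replicates 1 and 3 and an FDR of 0.162 without TRC replicate 1. In fatty acid oxidation 1 of 23 genes tested was upregulated and 0 downregulated, with a median of 0.17. The gene was *Eci2*, an enoyl-CoA isomerase for unsaturated chains, with a log2 fold change of 1.3 (FDR = 5.58e-06). *Cpt1a*, the entry enzyme of mitochondrial oxidation, had 32.0 and 44.3 CPM in control cells and 56.2 and 30.5 CPM in TRCs (FDR = 0.751).

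For sterol synthesis, the neighbouring pathway under SREBP2, 12 of 21 genes tested were upregulated and 0 downregulated, with a median of 0.91 beside 0.42 for the 10 fatty acid genes. The count was 9 in the quasi-likelihood test, 7 without control replicate 1, 18 without control replicate 3, 10 without TRC replicate 1 and 6 without TRC replicate 3. *Hmgcs1*, *Fdft1* and *Sqle* had log2 fold changes of 1.60, 1.62 and 1.36. Both TRC values lay above both control values for 19 of the 21 genes, and for 30.2% of all genes tested. The difference between the lists was not tested. Counts of 0 lower genes in the lists were from edgeR's exact test. The quasi-likelihood test also gave 0 lower genes in those lists, and DESeq2 called 1 regulator lower. At an unadjusted p under 0.05, 1 gene was lower in each of the lists of electron donors, acyl-CoA synthetases and regulators, and 0 in the lists of elongation, esterification, oxidation and sterol synthesis. No tested partner of lipogenesis was higher at that p, in the quasi-likelihood test or in DESeq2. *Thrsp*, a lipogenic cofactor named after its values were seen, was removed by the filter, with 0 and 2 counts in control cells against 14 and 21 in TRCs, and was called higher without a filter (FDR = 0.00232).

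**Figure D5:**
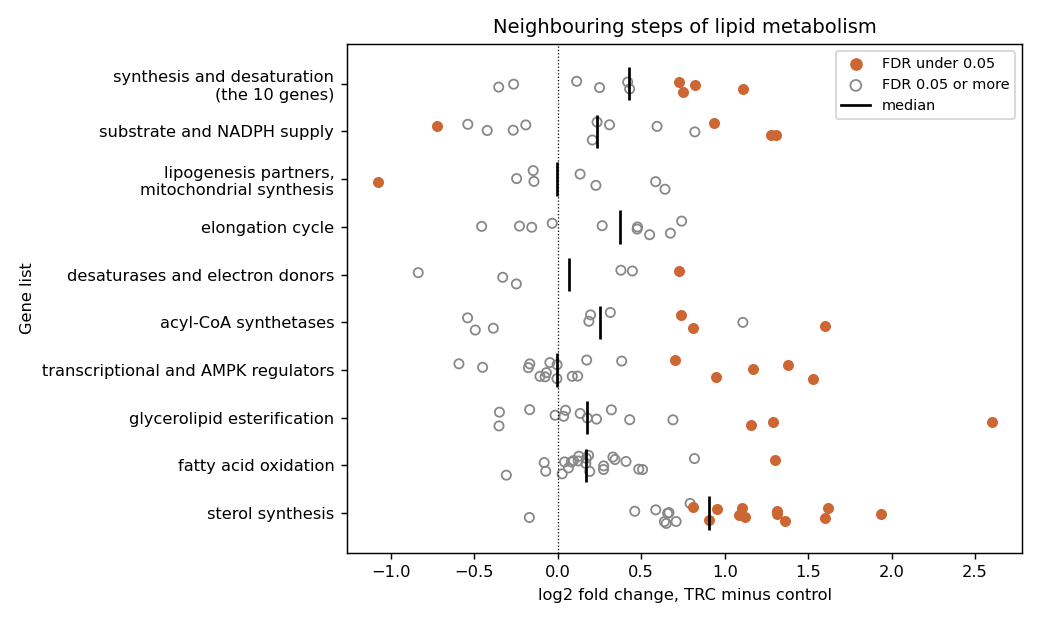
Log2 fold change of TRCs relative to control cells (horizontal axis) for every gene tested in the 10 fatty acid genes and 9 neighbouring gene lists, filled orange for FDR under 0.05, open for the others, and a black line at each median. The medians lie between −0.0047 and 0.42 except for sterol synthesis at 0.91.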

How the data were processed

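RNA-seq was performed on 2 libraries of B16F1 control cells and 2 of TRCs. The authors deposited raw counts per Ensembl gene and library. The submitters' processing notes name CASAVA 1.8.2, Trimmomatic 0.35, TopHat2 2.1.0, Bowtie2 2.2.6, SAMtools 1.3 and HTSeq. Rows for reads with no feature or without a unique alignment were left out of library sizes; reads with no feature were 2.945% to 4.246%.

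Genes with less than 1 CPM in 3 or more of 4 libraries were removed. Counts were scaled by TMM and tested with the exact test of edgeR 4.0.16 (R 4.3.3, prior count 0.125, FDR under 0.05). SE values came from DESeq2 1.42.0. Scripts were tested on simulated data. Library ratios used log2(CPM + 0.5), and levels per kb used the longest annotated transcript. An exact permutation test of 2 against 2 libraries cannot give a two-sided p under 0.333 and was not used. Alternatives changed the filter, scaling, test, prior count and libraries. Scaling by all exons was added after seeing the data.

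The members and lists were chosen with earlier results of these data known. Named were the 10 genes, 15 preset pathway genes, up to 3 called genes with the smallest FDR per list, and all isoenzymes for shares. In 39179 listed genes, 37693 identifiers were in the annotation (GENCODE M21).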

Additional observations from a re-analysis of the deposited data

How the results depend on the processing

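*Scd1*, *Acsl3* and *Me1* kept an FDR under 0.05 in 8 of 8 alternatives that kept all libraries. Among these, the prior count of 2 changed only fold changes and could not change an FDR, here or in the counts below. *Scd2* did so in 5 of 8, with 0.0545 without a filter on low counts, 0.142 in the quasi-likelihood test and 0.0595 with a replicate block. The quasi-likelihood test called 567 genes higher and 487 lower, against 1012 and 810 in the exact test. With each library left out in turn, where the lone library of a group is assumed to vary like the others, 500 to 1078 genes were higher and 269 to 854 lower, 1 to 4 of the 10 genes were higher and 0 to 1 lower, and their median log2 fold change was 0.0897 to 0.796. Without control replicate 1 the median was 0.0897, and without control replicate 3 it was 0.80. In the same fits the log2 fold change changed sign for *Fasn* (−0.76 to 0.22), *Acaca* (−0.56 to 0.10), *Elovl6* (−0.039 to 0.61), *Fads1* (−0.030 to 0.23), *Mid1ip1* (−0.56 to 0.15), *Srebf1* (−0.16 to 0.38) and *Cpt1a* (−0.34 to 0.55). Of these, *Fasn* had an FDR under 0.05 in 1 fit, without control replicate 1, and the others in none.

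Samples with the same replicate number did not deviate together (r = 0.027 across genes), so the numbers are not known to pair them. With a replicate block the quasi-likelihood test called 477 genes higher and 308 lower, and 3 of the 10 genes higher, with a median of 0.46. It called 2 regulators higher, and 0 of the other acyl-CoA synthetases. Of the values for the 10 genes under single alternatives, 101 kept direction and side of the threshold, 4 changed sign, 13 lost and 2 gained the call. Each of the 10 genes had 3499 counts or more in every library, and depth was not varied. The cause of these shifts was not tested.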
